A study of Schizosaccharomyces pombe with 24 samples.

Results

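The small nucleolar RNA (snoRNA) genes of the fission yeast Schizosaccharomyces pombe were described from the genome annotation that the authors deposited for cells with the reporter at its endogenous site. They were taken as the genes on chromosomes I, II and III whose identifier begins with SPSNORNA, and there were 53 of them among 12630 genes. The study sequenced chromatin immunoprecipitated (ChIP-seq) with antibodies to the 2 modifications of heterochromatin, H3K9me2 and H3K9me3, which are forms of histone H3 with methyl groups on lysine 9. Its question, per its title, was how heterochromatin forms and is remembered without HP1 proteins, of which Swi6 is the main one in this yeast. Of 24 libraries, 14 came from cells with the reporter at the ectopic site (ura4D::10xteto-ade6+) and 10 from cells with it at the endogenous site (cenHD::10xteto-ade6+). Cultures were taken in log phase in YEA at 32 °C, and every strain carried a reporter of 10 tet operators with the ade6+ gene.

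Both sites had WT, swi6D, swi6D mst2D, swi6D set1D and swi6D mst2D set1D strains, where D marks a deleted gene. The ectopic site also had clr4D and mst2D set1D strains. Clr4 is the enzyme that methylates lysine 9 of histone H3, Mst2 is a histone acetyltransferase and Set1 methylates lysine 4 of histone H3. Each group of site, genotype and antibody held 1 library, so there was no replicate. The files hold gene positions and no value per library, the read depth is unknown, and no comparison between genotypes could be made for any snoRNA gene.

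SnoRNAs are short, stable non-coding RNAs that work in the nucleolus, where ribosomes are made. Box C/D snoRNAs pair with ribosomal RNA (rRNA) just before their box D or a similar inner box, and the rRNA base opposite the fifth base before that box receives a methyl group on its ribose. Box H/ACA snoRNAs fold into hairpins that direct the change of uridine to pseudouridine, and they end with the letters ACA close to the 3′ end. A few snoRNAs, such as U14 and U17 (snR30), are known in budding yeast for their part in cutting 18S rRNA out of its precursor. In yeasts and animals snoRNAs are made from genes of their own, cut out of transcripts that hold several, or released from introns of other genes.

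All 3 arrangements were present among the 53 genes. RefSeq names 19 of them as box H/ACA snoRNAs, 1 (snoZ30) as a box C/D snoRNA, and gives no box for 33. The 19 are called the H/ACA genes below and the remaining 34 the other genes. The sequences of the genes that lie together in 1 long transcript and of those in introns are shown first, because both stand inside another gene.

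The 8 clustered genes lay in 2 runs on the plus strand of chromosome I, where a cluster was a run of neighbours under 1000 bases apart. Their sequences are printed 5′ to 3′ from RefSeq, assembly ASM294v3, where all 8 had the same positions as in the deposited annotation. Capitals near the start mark box C (TGATGA, at most 1 mismatch) and capitals near the end mark box D (CTGA). The genes lie at I:526726-526803 (snoZ8), I:526937-527036 (snoZ7), I:527191-527275 (snoZ5), I:527387-527474 (snoZ4), I:527624-527713 (snoZ3), I:1200168-1200253 (snR41), I:1200394-1200501 (snR70) and I:1200646-1200729 (snR51b).
snoZ8: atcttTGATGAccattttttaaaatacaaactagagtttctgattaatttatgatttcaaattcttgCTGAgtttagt
snoZ7: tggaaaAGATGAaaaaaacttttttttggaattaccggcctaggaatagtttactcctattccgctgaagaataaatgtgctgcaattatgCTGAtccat
snoZ5: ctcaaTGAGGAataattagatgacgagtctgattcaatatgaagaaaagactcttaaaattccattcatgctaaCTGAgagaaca
snoZ4: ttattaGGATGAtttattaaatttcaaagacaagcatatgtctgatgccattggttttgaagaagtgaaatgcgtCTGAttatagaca
snoZ3: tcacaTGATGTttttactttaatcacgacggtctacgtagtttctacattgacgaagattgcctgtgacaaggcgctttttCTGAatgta
snR41: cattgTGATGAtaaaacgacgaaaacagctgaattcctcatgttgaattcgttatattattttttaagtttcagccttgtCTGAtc
snR70: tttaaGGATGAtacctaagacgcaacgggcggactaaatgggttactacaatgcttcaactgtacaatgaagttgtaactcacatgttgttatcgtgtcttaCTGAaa
snR51b: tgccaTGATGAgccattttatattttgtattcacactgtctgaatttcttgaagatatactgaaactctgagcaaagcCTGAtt

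All 8 carried box D, and box C began at base 6 or 7 in each of them. Box C matched TGATGA exactly in snoZ8, snR41 and snR51b and had 1 mismatch in the other 5.

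The 10 intronic genes are printed in the same way, with capitals on the same boxes, because each lies within the intron of a protein-coding gene. On the plus strand are snoR39a (I:1712996-1713071), snoU24b (I:2440336-2440418), snoR38 (I:5144133-5144206) and snoR54 (II:1707601-1707681). On the minus strand are snoR58 (I:5366223-5366297), snoU24 (I:5369640-5369686), snoZ15 (II:1756122-1756222), snoR39b (II:1791743-1791820), snoU18 (II:2720648-2720733) and snoR47 (II:3654333-3654416). These are ASM294v3 positions, and the deposited annotation has snoU18 and snoR47 6539 bases further right.
snoR39a: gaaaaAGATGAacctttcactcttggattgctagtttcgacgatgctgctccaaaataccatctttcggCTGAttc
snoU24b: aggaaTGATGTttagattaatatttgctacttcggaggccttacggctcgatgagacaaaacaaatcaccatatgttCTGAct
snoR38: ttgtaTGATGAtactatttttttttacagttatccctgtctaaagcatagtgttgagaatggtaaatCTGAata
snoR54: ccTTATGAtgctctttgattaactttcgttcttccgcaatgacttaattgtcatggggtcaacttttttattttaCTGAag
snoR58: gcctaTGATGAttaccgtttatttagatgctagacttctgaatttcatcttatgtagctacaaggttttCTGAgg
snoU24: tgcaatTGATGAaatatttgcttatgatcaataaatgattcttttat
snoZ15: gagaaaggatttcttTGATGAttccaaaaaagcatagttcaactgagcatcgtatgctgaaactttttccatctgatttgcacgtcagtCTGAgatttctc
snoR39b: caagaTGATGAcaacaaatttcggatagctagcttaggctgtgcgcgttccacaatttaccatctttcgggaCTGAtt
snoU18: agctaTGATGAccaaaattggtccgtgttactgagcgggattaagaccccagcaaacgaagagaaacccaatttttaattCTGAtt
snoR47: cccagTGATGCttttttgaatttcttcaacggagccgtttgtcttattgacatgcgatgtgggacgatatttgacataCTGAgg

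Of the 10, 9 had box D with 2 to 8 bases after it, and snoU24, the shortest, had no CTGA at all. In snoR54 box C could be read at more than 1 place with 1 mismatch, and the leftmost is capitalised.

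For contrast, 3 H/ACA genes are shown with the ACA that stands 3 bases before the 3′ end in capitals, which are snR91 (I:3316466-3316609, minus strand), snR92 (II:2121215-2121358, plus strand) and snR46 (III:1717920-1718087 in ASM294v3, minus strand).
snR91: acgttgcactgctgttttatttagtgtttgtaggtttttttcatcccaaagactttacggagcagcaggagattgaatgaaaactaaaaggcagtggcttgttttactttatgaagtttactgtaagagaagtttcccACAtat
snR92: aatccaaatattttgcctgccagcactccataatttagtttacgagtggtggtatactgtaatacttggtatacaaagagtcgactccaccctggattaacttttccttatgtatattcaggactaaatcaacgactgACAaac
snR46: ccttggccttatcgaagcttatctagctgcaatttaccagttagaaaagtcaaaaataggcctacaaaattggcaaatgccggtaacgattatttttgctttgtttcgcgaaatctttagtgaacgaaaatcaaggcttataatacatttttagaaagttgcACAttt

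These 3 were between 144 and 168 bases long, and none of them held TGATGA near its start.

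The annotated lengths of the 53 genes ran from 47 to 488 bases with a median of 95. The H/ACA genes had a median of 168 bases (142 to 488) and the other genes a median of 84 (47 to 326). No gene was longer than snoU14 (112 bases) and shorter than snR5 (142 bases). The 32 genes up to 112 bases were all among the other genes. Of the 21 genes from 142 bases up, 19 were H/ACA genes, and the exceptions were snR30 and sno16. For scale, the 171 transfer RNA genes had a median of 73 bases (71 to 102), and the protein-coding genes 1773.

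**Figure D1:**
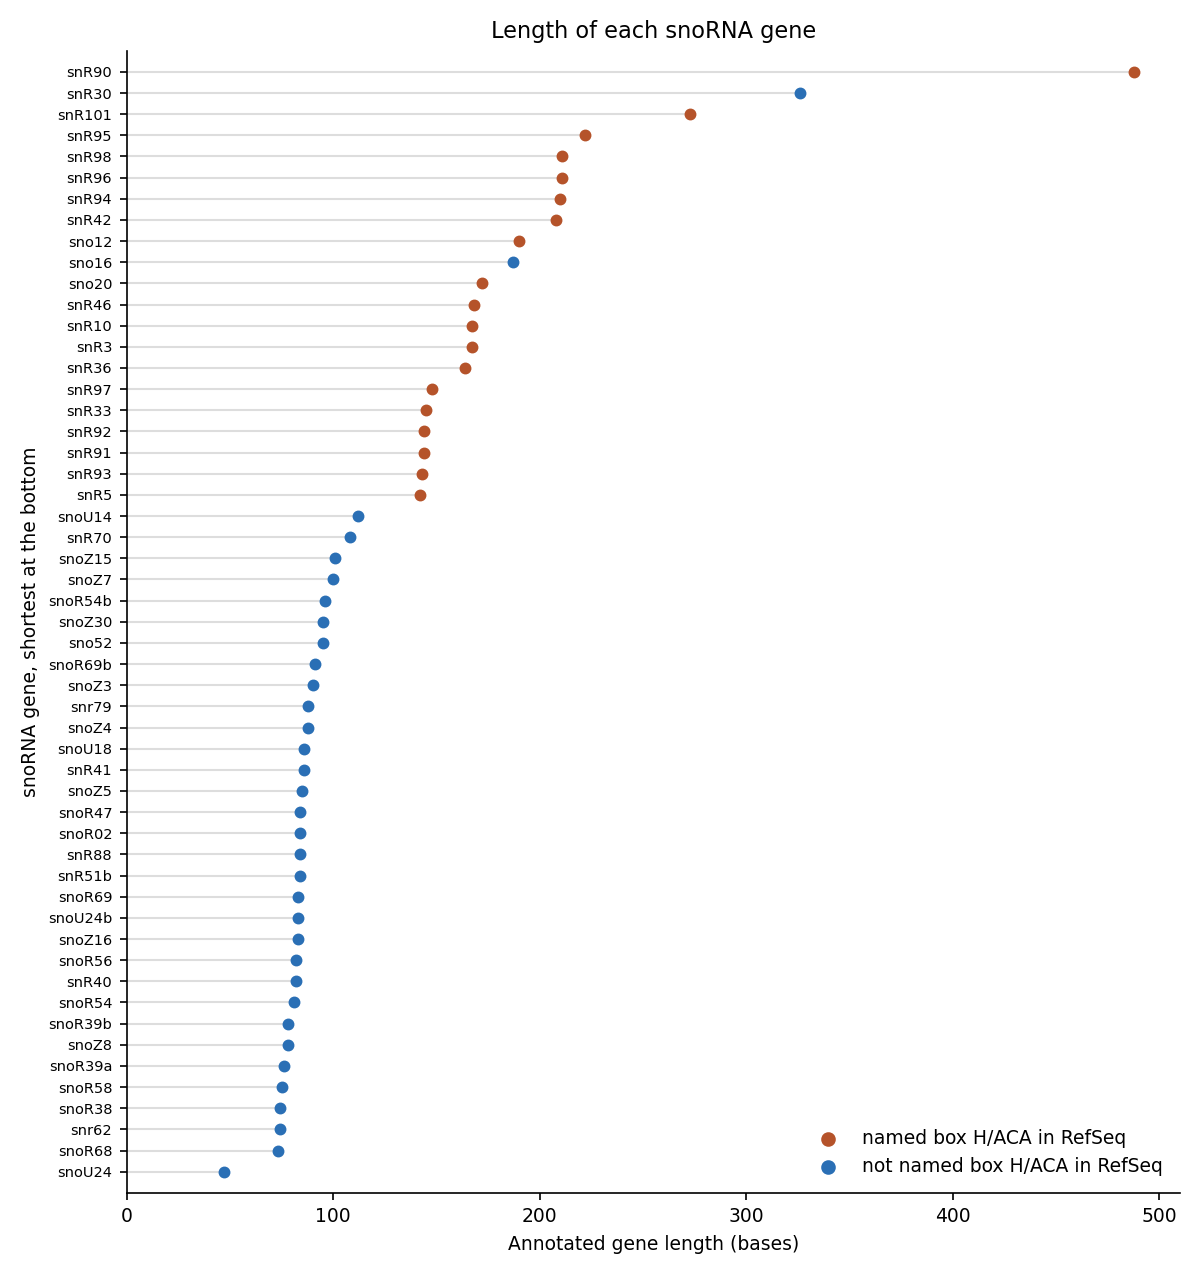
Annotated length in bases (horizontal axis) of each of the 53 snoRNA genes (1 point a gene), ordered by length and coloured by whether RefSeq names the gene as box H/ACA. The points leave a gap between snoU14 at 112 bases and snR5 at 142 bases.

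The 5 longest genes were snR90 (488 bases with its intron), snR30 (326), snR101 (273), snR95 (222) and snR98 (211, equal to snR96). They were H/ACA genes, except snR30, the U17 RNA. The 5 shortest were snoU24 (47 bases), snoR68 (73), snoR38 and snr62 (74 each) and snoR58 (75), all among the other genes. SnoU24 stood apart, and the next 4 differed by at most 2 bases.

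SnoU24 is named after U24, a box C/D RNA that in budding yeast guides methylation of the large rRNA. Its 47 annotated bases hold box C at base 7 and no CTGA. When the annotated gene was extended by 30 bases at its 3′ end, a single CTGA appeared 14 bases past the annotated end. The extended stretch (I:5369610-5369686, minus strand, ASM294v3) reads as follows, with box C and that CTGA in capitals.
snoU24 with 30 bases past its end: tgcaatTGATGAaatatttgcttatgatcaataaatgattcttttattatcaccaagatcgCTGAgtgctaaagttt

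Just before that CTGA, with 1 base between them, lay 10 bases complementary to 28S rRNA positions 1468 to 1477. The extension was examined after the annotated gene was found to lack box D.

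SnR90, an H/ACA gene on the minus strand of chromosome I, was the only member with an intron of its own. Its exons of 195 and 107 bases, 302 together, flanked an intron of 186 bases (I:4937014-4937199). In the annotation for the ectopic-site strains the same identifier named a gene of 156 bases (I:4937014-4937169), wholly inside that intron. The same identifier therefore stood for stretches that shared none of the exon bases. Neither form had ACA exactly 3 bases before its end. SnR90 was also the only SPSNORNA gene in the ectopic-site annotation, which holds 6950 genes.

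The boxes differed between the H/ACA genes and the other genes, for 33 of which RefSeq gives no box. Exact box C within the first 25 bases was found in 19 of the 34 other genes (55.9%), in 0 of the 19 H/ACA genes and in 0.439% of the 12540 genes of ASM294v3 that are no snoRNA and are at least 50 bases long. Box D within the last 25 bases was found in 29 of 34 (85.3%), in 3 of 19 (snR96, snR98 and snR92) and in 5.73% of the same background. Both boxes stood together in 18 of the 34 (52.9%), in no H/ACA gene and in 0.104% of the background. With 1 mismatch allowed in box C the pair was found in 28 of 34 (82.4%), in no H/ACA gene and in 0.630% of the background. All letters were read on the gene's own strand. A match is a description of the sequence and no evidence of use.

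The places of the boxes varied little. Box C, with up to 1 mismatch, began at base 6 in 21 of the 32 other genes that had it, with a range of 2 to 16. Exactly 2 bases followed box D in 16 of 29 genes, with a range of 2 to 9. The pair was missing in 6 of the other genes. SnoR02, snoR54b, snoU24 and snR30 had a box C form without box D, snR88 had box D without box C, and sno16 had neither.

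ACA exactly 3 bases before the annotated end was found in 9 of 19 H/ACA genes (47.4%), which were snR97, snR91, snR95, snR36, snR92, snR33, snR93, sno12 and snR46. Among the other genes 1 had it, against 1.82% of the background. That gene was snR30, whose budding yeast counterpart is a box H/ACA RNA. With ACA allowed anywhere in the last 10 bases, 19 of all 53 genes had it in place of 10. These were 15 of the 19 H/ACA genes (78.9%) and 4 of the 34 other genes (11.8%), against 13.5% of the background. In snR3, an H/ACA gene at II:884166-884332 on the minus strand, the letters ACA stand close to the end but not at that place.
snR3: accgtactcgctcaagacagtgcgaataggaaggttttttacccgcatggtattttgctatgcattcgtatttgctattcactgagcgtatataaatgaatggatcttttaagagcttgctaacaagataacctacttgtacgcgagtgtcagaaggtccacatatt

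In complementarity to rRNA the 2 classes differed as well. Runs of at least 10 bases with perfect Watson-Crick complementarity to 18S, 28S or 5.8S rRNA, ending at most 4 bases before a CTGA, were found in 16 of the 34 other genes (47.1%) and in 0 of the 19 H/ACA genes. Only a gene with a CTGA could have such a run. Among genes with a CTGA it was found in 16 of 31 other genes (51.6%) and 0 of 9 H/ACA genes. By copies of CTGA, 19 of 50 (38.0%) in the other genes had such a run and 0 of 10 in the H/ACA genes. Of 82957 CTGA copies on both strands of ASM294v3 outside rRNA and snoRNA genes, 2.88% had one. In the H/ACA genes the longest run was 9 bases, in snR3. For 12 genes the longest run was complementary to 28S rRNA, for 4 to 18S rRNA and for none to 5.8S rRNA.

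**Figure D2:**
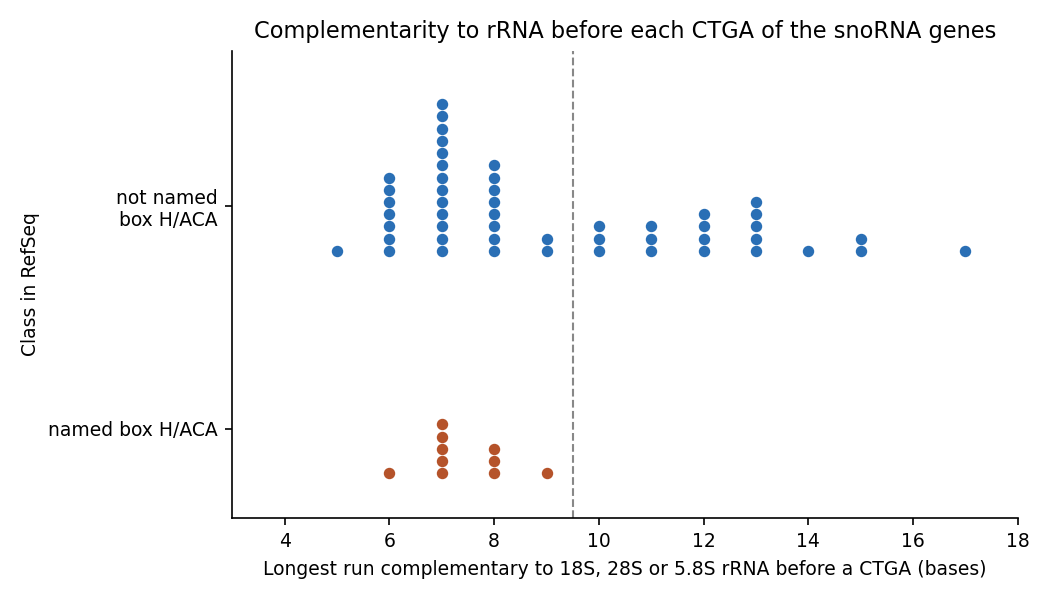
Longest run of bases complementary to 18S, 28S or 5.8S rRNA just before each CTGA (horizontal axis, bases), with 1 point for each CTGA copy in the H/ACA genes (10 points) and the other genes (50 points). The dashed line stands below 10 bases, and 19 points of the other genes and none of the H/ACA genes lie to its right.

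The longest run was in snR41, a clustered gene, with 17 bases opposite 18S positions 1139 to 1155. SnoR02 had 15 bases opposite 18S positions 1245 to 1259, and snR51b had 15 bases opposite 28S positions 2821 to 2835. The intronic snoZ15 had 14 bases opposite 28S positions 905 to 918. The runs are printed with the rRNA bases they would pair with, each written 5′ to 3′, so that one is the reverse complement of its partner. Every letter is in capitals because every letter belongs to the run. The rRNA genes used lie on the minus strand of chromosome III, 18S at III:10419-12260 and 28S at III:16927-20411.
snR41 bases complementary to 18S: TTTAAGTTTCAGCCTTG
18S bases opposite snR41: CAAGGCTGAAACTTAAA
snoR02 bases complementary to 18S: TCAATCTGTCAATCC
18S bases opposite snoR02: GGATTGACAGATTGA
snR51b bases complementary to 28S: TTTGTATTCACACTG
28S bases opposite snR51b: CAGTGTGAATACAAA
snoZ15 bases complementary to 28S: GATTTGCACGTCAG
28S bases opposite snoZ15: CTGACGTGCAAATC

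The rRNA position opposite the fifth base before the CTGA was 1142 of 18S for snR41, 1248 of 18S for snoR02, 2824 of 28S for snR51b and 908 of 28S for snoZ15. In snR41 and snoZ15 the CTGA was box D itself, at bases 81 and 90. In snR51b and snoR02 it was an inner copy, at bases 40 and 44. SnoZ15 also had a shorter run of 10 bases before an inner CTGA, opposite 28S positions 846 to 855.

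Of the 8 clustered genes, 5 had a run, and none of at least 10 bases was found in snoZ7, snoZ3 or snR70. SnoZ8 had 11 bases opposite 28S positions 2507 to 2517 and, before its box D, another 11 opposite 28S positions 115 to 125. SnoZ5 had 12 opposite 28S positions 2373 to 2384 and, before its box D, 11 opposite 28S positions 2395 to 2405. SnoZ4 had 13 opposite 18S positions 25 to 37. In the snoZ transcript the runs were thus opposite both 18S and 28S rRNA. The first of the stretches opposite snoZ8 overlapped that opposite snoZ16, a gene elsewhere on chromosome I, whose 10 bases lay opposite 28S positions 2502 to 2511.

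Among the intronic genes, runs were also found in snoR58 (13 bases, 28S positions 685 to 697), snoU18 (12 bases, 28S positions 671 to 682), snoR39a and snoR39b. The genes outside clusters and introns with a run were sno52 (10 bases, 18S positions 419 to 428), snR88 (13, 28S positions 2301 to 2313), snr62 (13, 28S positions 1940 to 1952) and snoR68 (12, 28S positions 2731 to 2742), beside snoZ16 and snoR02. The letters alone do not show that a run is used as a guide.

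SnoR39a and snoR39b had runs complementary to the same place in 28S rRNA, positions 835 to 846 and 834 to 846. The runs differ by 1 base at the 3′ end.
snoR39a bases complementary to 28S: ACCATCTTTCGG
snoR39b bases complementary to 28S: ACCATCTTTCGGG

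The base opposite the fifth base before box D was position 839 for snoR39a and 837 for snoR39b. No base stood between the run and box D in snoR39a and 1 base did in snoR39b. The full sequences were 66.3% identical, the highest of all 1378 pairs of the 53 genes, where the median pair had 44.4%. Other genes named as pairs had lower values. Identity was taken over the whole alignment, so a difference in length lowers it. SnoR54 and snoR54b were 53.8% identical (rank 133), snoR69 and snoR69b 51.8% (rank 265), and snoU24 and snoU24b 48.2% (rank 505). The last value is limited by length, since snoU24 has 47 annotated bases and snoU24b 83. SnoR69 and snoR69b shared an unbroken run of 13 bases, as long as the one shared by snoR39a and snoR39b. Both lie in introns, snoR39a in that of rlp7 and snoR39b in that of rpl701. The product of rlp7 is a ribosome biogenesis protein related to ribosomal protein L7. RefSeq names the product of rpl701 an RNase MRP subunit and a protein like ribosomal protein L7.

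By position against other genes, 34 of the 53 (64.2%) lay wholly inside another gene, 10 of these in an intron, 4 overlapped a gene in part and 15 (28.3%) lay between genes. For comparison, 8.77% of transfer RNA genes, 46.1% of long non-coding RNA (lncRNA) genes and 11.0% of protein-coding genes lay inside another gene. In an intron lay 18.9% of the snoRNA genes, none of the 171 transfer RNA genes and 0.0279% of the lncRNA genes. All 10 intronic genes were among the other genes. Of the H/ACA genes 8 were inside another gene, 0 in an intron of another gene, 4 in partial overlap and 7 between genes. The shorter form of snR90 in the ectopic-site annotation, inside the intron of the longer form, is not counted here. Of the 34 genes inside another, 24 had a host on their own strand and 10 had only a host on the opposite strand. Hosts on the opposite strand are counted as hosts here, although a snoRNA cannot be cut from their transcript.

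**Figure D3:**
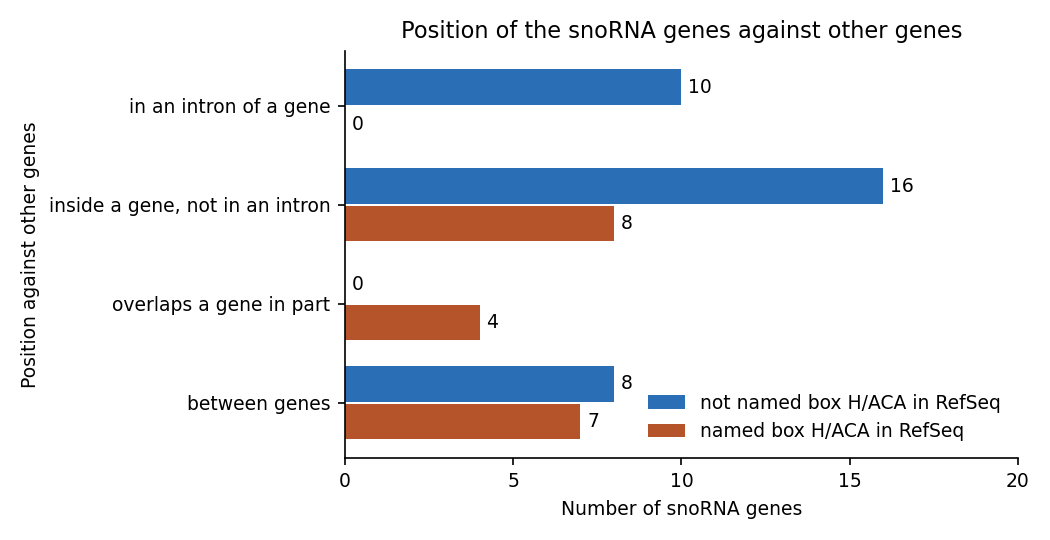
Number of snoRNA genes (horizontal axis) by position against other genes, for the 34 other genes and the 19 H/ACA genes. The intronic bar holds 10 genes, none of them H/ACA, and the bar for partial overlap holds 4, all H/ACA.

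Inside protein-coding genes strand and position went together. All 10 genes inside a protein-coding gene on the same strand were in its intron, and none of the 5 inside one on the opposite strand was.

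The host introns were long for this yeast. They ran from 157 to 441 bases with a median of 238, and the 5240 introns of protein-coding genes had a median of 56. Of these, 1066 (20.3%) were at least 101 bases long, the length of snoZ15, the longest intronic member, and their median was 158. The snoRNA began 24 to 266 bases from the 5′ splice site (median 49.5) and ended 49 to 258 bases before the 3′ splice site (median 83.5). In 8 of 10 introns it stood nearer the 5′ splice site, and the exceptions were snoR54 and snoR39b. In 7 hosts the intron was the only one.

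**Figure D4:**
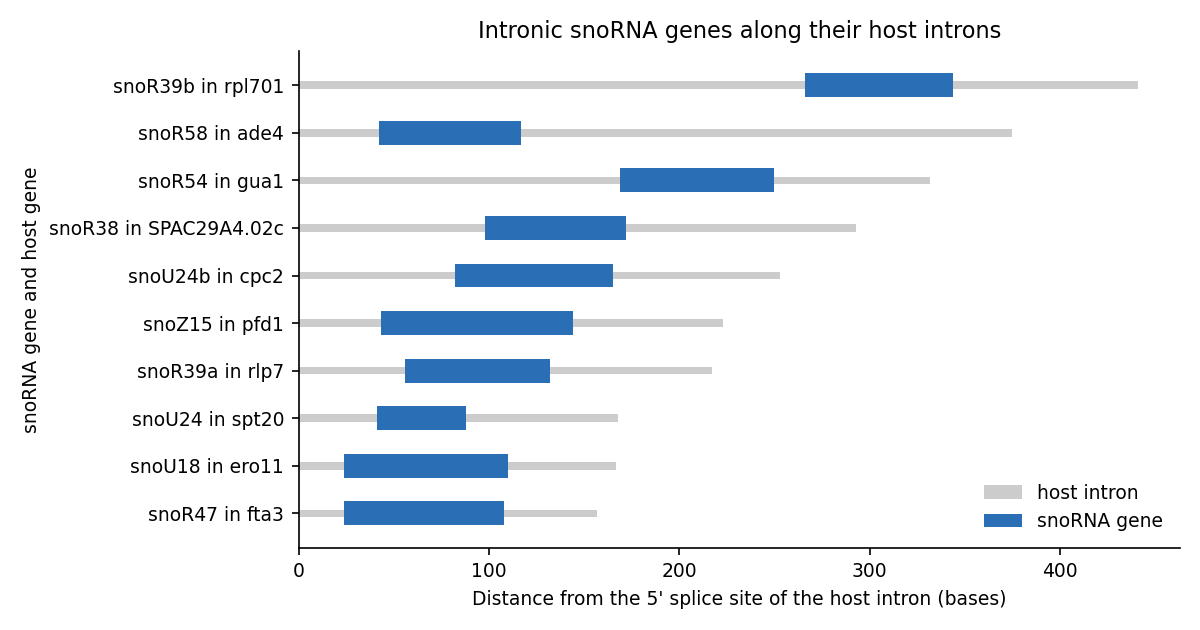
The 10 host introns (grey) and the snoRNA genes in them (blue), with the distance from the 5′ splice site in bases on the horizontal axis and the host gene in the label. The introns span 157 bases (fta3) to 441 bases (rpl701), and the snoRNA in rpl701 starts farthest from the 5′ splice site, at 266 bases.

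By product name, 4 of the hosts work in ribosomes or translation. Hosts were grouped after their products were seen, and the share of such genes among all protein-coding genes was not measured. SnoR39a lay in the intron of rlp7 (217 bases), which encodes a ribosome biogenesis protein, 56 bases from the 5′ and 85 from the 3′ splice site. SnoU24b lay in the second of 2 introns of cpc2 (253 bases), which encodes the ribosomal protein RACK1, with 82 and 88 bases on either side. SnoR38 lay in the intron of SPAC29A4.02c (293 bases), which encodes the gamma subunit of translation elongation factor EF-1, with 98 and 121. SnoR39b lay in the intron of rpl701 (441 bases), with 266 and 97, and RefSeq names the rpl701 product an RNase MRP subunit as well.

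Another 2 hosts make enzymes of purine synthesis. SnoR58 lay in the intron of ade4 (375 bases), the amidophosphoribosyltransferase gene, with 42 and 258 bases on either side. SnoR54 lay in the intron of gua1 (332 bases), the IMP dehydrogenase gene, with 169 and 82. The remaining hosts do other work. SnoU24 lay in the fourth of 4 introns of spt20 (168 bases), which encodes a subunit of the SAGA coactivator, with 41 and 80. SnoZ15 lay in the last of 3 introns of pfd1 (223 bases), which encodes a prefoldin subunit, with 43 and 79. SnoU18 lay in the intron of ero11 (167 bases), a gene for disulfide formation in the endoplasmic reticulum, with 24 and 57. SnoR47 lay in the intron of fta3 (157 bases), which encodes a kinetochore protein, with 24 and 49. Of the 3 hosts with several introns, cpc2 and pfd1 kept the snoRNA in their longest, whereas spt20 had another of 191 bases.

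The clusters were both inside annotated primary transcripts, long RNAs from which snoRNAs are processed. SnoZ8, snoZ7, snoZ5, snoZ4 and snoZ3 followed each other over 988 bases with gaps of 133, 154, 111 and 149 bases. Their transcript, snoZ (SPNCRNA.659, I:526641-528541), is 1901 bases long, begins 85 bases before snoZ8 and goes on for 828 bases after snoZ3. SnR41, snR70 and snR51b followed each other over 562 bases with gaps of 140 and 144 bases. Their transcript, SPNCRNA.723 (I:1200009-1200876), is 868 bases long, begins 159 bases before snR41 and ends 147 bases after snR51b. The snoRNA genes made up 44.6% of the first cluster and 49.5% of the second.

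**Figure D5:**
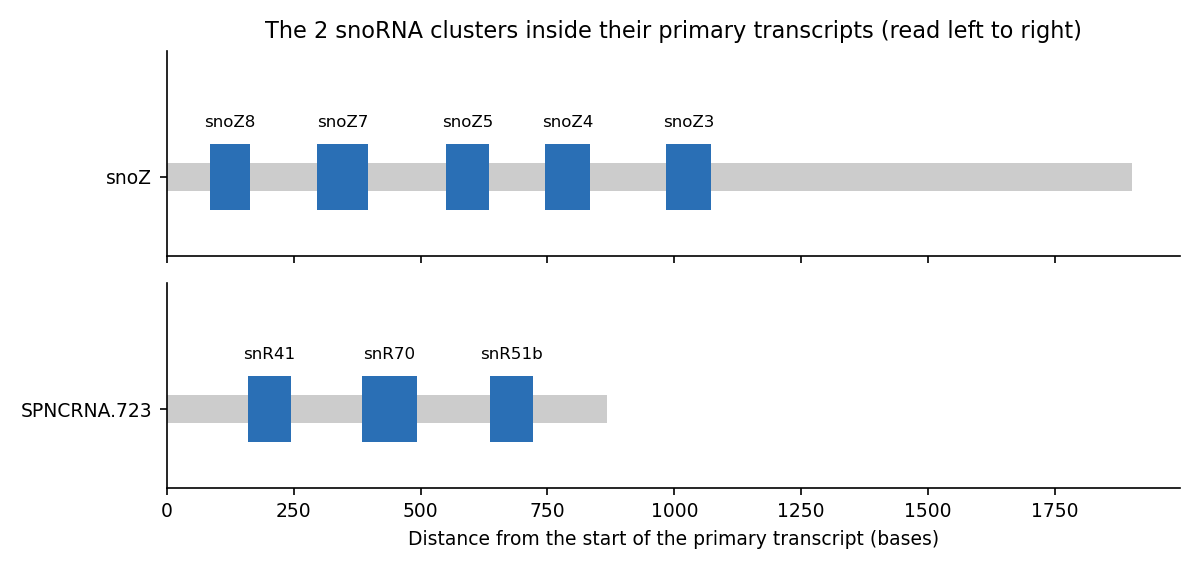
The 2 clusters drawn along their primary transcripts (grey), with the snoRNA genes (blue) at their distance in bases from the transcript's start. The gaps are 111 to 154 bases, and 828 bases of the snoZ transcript follow its last snoRNA gene, against 147 in SPNCRNA.723.

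Neighbouring snoRNA genes were either very close or far apart. Of 50 neighbouring pairs, 6 were 111 to 154 bases apart and the other 44 were 3342 bases (snoR58 and snoU24) to 725317 bases apart. The next smallest gap was 4267 bases, between snoR38 and snoR56. A limit of 500 or 2000 bases therefore gave the same 2 clusters, and the remaining 45 genes stood alone. No H/ACA gene was clustered.

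Primary transcripts with 1 snoRNA gene were annotated in 6 more places. SnR98, snR3, snoZ30, snoR68 and snR46 lay wholly inside SPNCRNA.814, SPNCRNA.1394, SPNCRNA.1483, SPNCRNA.1650 and SPNCRNA.7474. SnR91 shared 136 of its 144 bases with SPNCRNA.901, which begins 8 bases after the snoRNA gene does. The 8 transcripts were 281 to 1901 bases long, with a median of 664.5. The snoRNA of SPNCRNA.1650 lay 729 bases from the transcript's start and 40 from its end, and that of SPNCRNA.814 lay 10 from its start and 266 from its end.

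Some members lay opposite a protein-coding gene. SnR97 lay opposite rad8, a ubiquitin ligase gene, and inside the lncRNA gene SPNCRNA.617 on its own strand. Sno52 lay opposite taf9, a subunit gene of TFIID and SAGA. SnoR02 lay opposite alg3, a mannosyltransferase gene, and snr79 opposite gpi12, a gene for the synthesis of glycolipid anchors. These 4 fell wholly within the 3′ untranslated region of the coding gene. Sno20 lay opposite the coding bases of SPBC1921.04c, which is annotated as an uncharacterized protein, with all 172 bases. In part, snR90 shared 106 bases with the end of not3 (a subunit gene of the CCR4-Not complex). The shorter form of snR90 in the ectopic-site annotation begins past that end of not3, so only the longer form has this overlap. SnR36 shared 86 bases with the end of psd1 (phosphatidylserine decarboxylase). SnR96 shared 148 with the 5′ untranslated region of tim17 (a mitochondrial import channel).

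An lncRNA gene on the opposite strand held 8 members. SnoZ16, snR101, snoR69, snR92, sno16 and snR10 had no other host, whereas snoZ30 also lay in its primary transcript and snoR47 in the intron of fta3. SnR51b and snoR39a shared 43 and 48 bases with an lncRNA gene on the opposite strand besides their hosts. All of these lncRNA genes except that opposite snR92 (SPNCRNA.1487) have numbers of 2000 or higher. With non-coding genes so numbered left out, the primary transcript of snR46 among them, 28 members in place of 34 lay inside a gene and 21 in place of 15 between genes.

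Between genes lay 15 members, which were snR40, snR88, snR30, snr62, snoR69b, snoR54b, snoR56, snoU14, snR95, snR42, snR5, snR33, snR93, sno12 and snR94. The nearest gene upstream stood at a median of 186 bases (43 to 1131), and the nearest downstream at 181 (16 to 1027). The upstream neighbour was protein-coding for 5 and the downstream for 7. SnR33 stood closest upstream, 43 bases from gfa1 (an enzyme of glucosamine synthesis) with glo1 46 bases away on the other side. SnR30 had pdi4 16 bases downstream on the opposite strand. SnR93 stood 84 bases from rpl29, a ribosomal protein gene on the same strand.

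The HomolD box, CAGTCAC, is a promoter element of ribosomal protein genes in this yeast. It was searched on both strands in the 250 bases before each gene and was present for 12 of the 53 (22.6%), for 2.85% of the 12540 background genes and for 126 of 141 genes named rpl, rps or rpp (89.4%). Within 100 bases the box was present for 3 of the 53 (5.66%) against 2.13% of the background, and with 1 mismatch within 250 bases for 24 (45.3%) against 28.7%. With the exact letters within 250 bases it was present for 4 of 19 H/ACA genes (21.1%) and 8 of 34 other genes (23.5%). Because a snoRNA in an intron or a long transcript is started from its host, the box was also sought before each transcription unit, and 14 of 47 had it. Among intron hosts it was present for 3 of 10, at 40 bases before rlp7, 43 before cpc2 and 9 before rpl701. The share over other transcription units was not measured. The genes named rpl, rps or rpp, rpl701 among them, are part of the background. Among primary transcripts it was present for 2 of 8, at 25 bases before SPNCRNA.723 and 44 before SPNCRNA.7474. For the 29 members with neither kind of host, distances were taken from the annotated snoRNA gene, since no transcript start was measured. The box was present for 9 of them, 41 to 229 bases away, the nearest being sno20 (41), snR42 (51) and snR30 (63). Of the 29, snR97 lies inside an lncRNA gene on its own strand. SnoZ16, snR30 and snR90 are overlapped by non-coding genes on their own strand in the ectopic-site annotation. No match says only that these letters are not in the window.

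The snoRNA genes were richer in G and C than the bases beside them. Together they had 36.7% GC, against 30.8% in 250 bases on each side and 36.1% for chromosome I, 35.9% for II and 36.2% for III. The H/ACA genes and the other genes each had 36.7%. GC was higher than in the flanks for 41 of 53 genes, and the share among other kinds of gene was not measured. The flanks of clustered genes include bases of neighbouring members. It ran from 21.3% in snoU24 to 46.4% in snoU14. The highest flanks were those of snoR38 (41.6%), which lie partly in the exons of its host.

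The genes were spread unevenly over the chromosomes. Chromosome I, with 44.4% of the reference length, held 31 (58.5%, 5.56 per Mb), II 18 (3.96) and III 4 (1.63). Chromosome III held only H/ACA genes, II 9 of each class, and I 25 of the other genes and 6 H/ACA genes. On the plus strand were 35 and on the minus strand 18. The 8 clustered genes, from 2 primary transcripts, all count for chromosome I and the plus strand, so they are not separate placements.

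None of the 53 lay inside a centromere. The nearest were snr62, 62346 bases from that of chromosome I, snoR54, 62853 bases from that of II, and snR10, 78301 bases from that of III. The nearest to the endogenous reporter in the mating-type region (II:2135068-2136948) was snR92, 13709 bases to its left, and on its right snR5, 135618 bases away. The ura4 gene, the ectopic site, was 466790 bases from sno12 in ASM294v3. Nearest to the chromosome ends were snR97 (170708 bases) and snoR69 (191492) on I, snR3 (884165) and snoR68 (595159) on II, and sno12 (583415) and snR46 (734796) on III. The heterochromatin marks at these genes were not analysed here.

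Compared with ASM294v3, all 31 genes of chromosome I and 10 of chromosome II had the same positions. The 8 genes of II to the right of the reporter were shifted by 6539 bases, to the right, and the 4 of III by -1807 bases, to the left. Lengths and strands were the same for all 53.

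The ectopic-site annotation has few small RNA identifiers, so members of chromosome I were looked up there by position, given that 2300 of 2326 shared coding genes (98.9%) had the same first coding position. Of the 31 members 24 were overlapped by some gene and 14 by a non-coding gene on the same strand. Of these 14, 3 (snoZ16, snR30 and snR90) were overlapped by SPNCRNA.727, SPNCRNA.906 and SPNCRNA.1038, which are not in the endogenous-site annotation. Snr62, counted above as between genes, was overlapped there by SPAC4H3.12c, which did not overlap it in the endogenous-site annotation.

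Another 6 genes of type snoRNA have other identifiers and were not counted as members. They are snu3 and snu32 (the U3 RNAs), snR191, snoR61, a guide for U2 and 1 candidate. With them and the 7 primary transcripts that carry the same type, the annotation holds 66 features of type snoRNA.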

How the data were processed

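The authors deposited 2 annotations in GFF format, which give starts and ends in bases counted from 1 and nothing measured in a library. Geneious 7.1.5 wrote the one for the ectopic site, per the file headers. Trimmomatic and BWA are named, with no version, in the submitters' processing notes. The build used for alignment is not given in the sources used here, and read depth is unknown. The titles gave each library its site, genotype and antibody. No label ties an annotation to a strain, so its site was read from its reporter feature.

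From the files, genes were placed against every gene without an SPSNORNA identifier. A gene was inside another when both ends lay within it, and intronic when both lay between neighbouring exons of 1 host transcript. Sequences came from RefSeq ASM294v3, matched by PomBase identifier for all 53 genes and read on the gene's strand. Box C and box D were sought in the first and last 25 bases, the HomolD box in 250 bases upstream, and complementarity to rRNA (no G-U pairs) in the 22 bases before each CTGA. Pairs were aligned globally (match 1, mismatch -1, gap opening -2, gap extension -0.5). Python 3.11.15, biopython 1.88, scipy 1.17.1, numpy 2.4.6 and matplotlib 3.10.9 were used. Placement and searches were tested on simulated data and recovered all 50 planted cases of each position and 200 of 200 planted runs. Each planted position had 1 host with 1 intron, and false matches and overlapping hosts were not tested.

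The genes named are those in clusters, inside or overlapping other genes, of extreme length, nearest to a landmark, or different or missing in the other annotation, with their hosts. Those between genes, with a box or with an rRNA run were named in addition, after their values were seen. Members and lists were chosen with earlier results of these data known. The rRNA search, transcription units, pair identity, the extension of snoU24, the intron comparison and the look-up in the ectopic-site annotation were added after the data were seen. All 53 genes are accounted for, and no test was made, since no group has a value.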

Additional observations from a re-analysis of the deposited data

How the results depend on the processing

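No paired analysis was possible because the files hold no value per library and no test was made. Of 43 alternatives over 13 results, 28 kept the value and 15 moved it. Counts, medians and shares have no direction, so none could be reversed. Some alternatives were bound to keep the value. ASM294v3 holds the same 53 genes with the same lengths and strands, and no member shares bases with another. A count was kept when within 1.5 times, a median length when equal, and GC content when within the 95% Wilson interval of the genes' own value. In the ectopic-site annotation, which has 1 of the 53 identifiers, the number of genes was 1, the median length 156 bases, the number of clusters 0, the number of clustered genes 0, the number inside another gene 1, in an intron 0 and between genes 0. With protein-coding hosts only, 15 genes lay inside another and 35 between genes. With hosts on the same strand only, 28 lay between genes. With 1 mismatch in box C, 28 genes in place of 18 had both boxes. With ACA anywhere in the last 10 bases, 19 in place of 10 had it. In the flanks GC was 30.8% against 36.7%. The HomolD box was found for 3 genes within 100 bases and for 24 with 1 mismatch, in place of 12. Leaving out non-coding genes numbered 2000 or higher, and other lengths and distances of the rRNA run (13 to 18 genes in place of 16), were tried after seeing the data. Counts are of annotated features, and no reads were analysed here to check where a gene begins or ends.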
